A study of Danio rerio with 28 samples.

Results

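The heat shock proteins and chaperones described here were the genes of the deposited count table whose symbol begins with hsp, dnaj or hsf followed by a digit, leaving out hspg2, with bag3 and serpinh1b added. The rule found 90 of 38318 genes, and 84 of them were among the 25393 genes with enough counts to be tested. The other 6, dnajb5, dnajb6b, dnajc28, hsf2bp, hsf5 and hspb9, held 109, 3, 0, 23, 70 and 27 counts summed over all libraries. The set held 4 inducible HSP70 copies (hsp70.1, hsp70.2, hsp70.3 and hsp70l), 7 other HSP70 family genes, 4 HSP110 and 4 HSP90 genes, 2 mitochondrial chaperonin genes and 9 small heat shock protein genes. It also held 51 J-domain genes (5 DNAJA, 14 DNAJB and 32 DNAJC), 5 genes of heat shock factor symbols and 4 further genes, bag3, serpinh1b, hspbp1 and hspbap1. The symbol rule does not reach hsc70, serpinh1a, DNAJA4 or the hsbp1 genes, which are related by name or function.

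Chaperones bind unfolded or partly folded proteins and keep them from clumping until they fold. HSP70 proteins do this in cycles that J-domain proteins (HSP40) start and nucleotide exchange factors such as HSP110 and BAG proteins end, HSP90 proteins act on nearly folded clients, and small heat shock proteins hold unfolded chains. Some of these genes, such as hspa8 and hsp90ab1, are transcribed in all cells, whereas the inducible HSP70 copies are kept low and are switched on by heat shock factor 1 when unfolded proteins build up, for which heavy metals such as cadmium are textbook triggers.

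The data are RNA-seq counts from whole wild-type zebrafish larvae of the AB strain. Exposure ran in E3 medium at 28.5 °C and lasted from 1 until 5 days post fertilization. The 7 groups of 4 libraries were cadmium (Cd), a toxic metal, at 2.4, 12 or 24 ug/L, PCB126, a dioxin-like polychlorinated biphenyl that activates the aryl hydrocarbon receptor, at 0.08, 0.4 or 0.8 nM, and control. The labels give a single control group, whose library names carry the prefix of the Cd groups, and name no vehicle. They do not say whether the Cd and PCB126 groups were run as separate series. An effect of PCB126 therefore cannot be told apart from a possible difference between series. The labels do not say which libraries stem from different clutches or dishes, so the spread that the p-values rest on may be technical.

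Libraries held 11893345 to 20770004 counts. In 26 of the 28 libraries the TMM scaling factor lay between 0.993 and 1.08 and ribosomal protein genes (80 genes) took 5.82% to 6.82% of counts. The other libraries were control replicate 4, at a factor of 0.646 and a share of 12.5%, and the third Cd 2.4 ug/L replicate, at 0.687 and 12.9%. This divergent pair was kept, and many but not all results are also given without it, a setting chosen after the data had been seen. The exposure check gene of PCB126, cyp1a, rose by 3.58, 6.16 and 7.24 on the log2 scale at 0.08, 0.4 and 0.8 nM. The metallothionein gene mt2, which cadmium is known to induce, was not called at any Cd dose, with a log2 fold change of 0.86 ± 0.39 (SE) at 24 ug/L (adjusted p = 0.359). It was 1.18 ± 0.39 at 2.4 ug/L and 0.19 ± 0.39 at 12 ug/L, so its values did not follow the order of doses.

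Differences are log2 fold changes from edgeR's quasi-likelihood test, and a gene was called at a Benjamini-Hochberg adjusted p below 0.05 over all 25393 genes. That test gives no standard error (SE). Each SE was derived as the absolute log2 fold change divided by the square root of the F statistic. Levels are CPM (counts per 1e6 counts), scaled by library total and TMM factor, which suits a comparison of a gene between libraries, or the authors' TPM, which is per length and suits a comparison between genes. Over the 9 comparisons 13 of the 84 tested genes were called at least once (15.5%, beside 5.05% of all tested genes), in 28 calls. Among the 13 are bag3 and serpinh1b, added by name with earlier results of these data known. The shares of members called therefore describe the set and are no test of an excess. When the model held only the 2 groups compared, edgeR called 0 of these genes in each of the 6 comparisons with control. It also called 0 in Cd 24 against 2.4 ug/L. In these comparisons 1 to 16 members were at an unadjusted p below 0.05, beside 1.05% to 8.90% of all genes. That model called 0.00%, 0.0123% and 0.0787% of all genes at Cd 2.4, 12 and 24 ug/L, 0.0459%, 0.153% and 0.460% at PCB126 0.08, 0.4 and 0.8 nM, and 0.00% between the Cd doses. It called 5 of 83 members in PCB126 0.8 against 0.08 nM (6.02%, beside 7.12% of all genes) and 7 of 83 in Cd 24 ug/L against PCB126 0.8 nM (8.43%, beside 4.45%). The comparisons with control share the same 4 control libraries.

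In CPM the inducible HSP70 copies had their highest group means at Cd 24 ug/L and lower group means than control in the PCB126 groups. Of the copies, 3 lie next to each other on chromosome 3 within 14.3 kb (GRCz11): hsp70.1 (ENSDARG00000029688) at 26112780 to 26115559 and hsp70.2 (ENSDARG00000092362) at 26119603 to 26122353 on the minus strand, and hsp70.3 (ENSDARG00000021924) at 26123736 to 26127091 on the plus strand. The fourth, hsp70l (ENSDARG00000055723), lies on chromosome 8 at 4798158 to 4800911. The copies are close in sequence, and how reads matching several of them were counted is not given in the sources used here, so the split of counts between copies is uncertain. Raw counts were low, from 59 to 514 per library for hsp70.3 (median 123), 51 to 294 for hsp70.2 (median 109), 43 to 210 for hsp70l (median 98) and 8 to 123 for hsp70.1 (median 45).

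The most abundant copy in CPM was hsp70.3. It had 13.1, 7.78, 7.06 and 16.2 CPM in control libraries, and in the Cd groups 9.34, 8.07, 8.59 and 12.8 CPM at 2.4 ug/L, 13.2, 17.6, 13.3 and 18.5 CPM at 12 ug/L and 28.9, 21.0, 32.8 and 21.6 CPM at 24 ug/L. In the PCB126 groups it had 6.97, 7.24, 5.87 and 7.33 CPM at 0.08 nM, 7.18, 5.23, 5.01 and 8.16 CPM at 0.4 nM and 4.61, 5.59, 6.63 and 5.43 CPM at 0.8 nM. Every Cd 24 ug/L library lay above every library of the other groups, and every PCB126 0.8 nM library lay below every control library. At Cd 24 ug/L hsp70.3 rose 2.37-fold over control (log2 fold change 1.25 ± 0.23, adjusted p = 0.00457; 1.49 ± 0.21 without the divergent pair). At PCB126 0.8 nM it fell by 0.98 ± 0.24 on the log2 scale against control (adjusted p = 0.0166; by 0.74 ± 0.23 without the pair). That fall lost its call when control replicate 1, control replicate 4 or PCB126 0.8 nM replicate 1 was left out, with adjusted p up to 0.0796, and when library totals alone were used for scaling.

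The neighbouring copy hsp70.2 had the same order of group means. It had 7.85, 6.76, 7.06 and 13.0 CPM in control libraries, 8.42, 7.25, 5.52 and 11.0 CPM at Cd 2.4 ug/L, 10.4, 11.7, 10.1 and 9.53 CPM at 12 ug/L and 16.1, 16.3, 18.8 and 11.8 CPM at 24 ug/L. Its PCB126 values were 6.40, 6.54, 7.26 and 6.99 CPM at 0.08 nM, 7.18, 5.23, 5.12 and 5.93 CPM at 0.4 nM and 3.98, 5.38, 5.47 and 5.85 CPM at 0.8 nM. At Cd 24 ug/L the lowest library overlapped the control range, because control replicate 4 stood at 13.0 CPM. The rise at Cd 24 ug/L was 0.87 ± 0.20 on the log2 scale (adjusted p = 0.0325; 1.13 ± 0.16 without the pair), and 6 of the 8 single-library omissions ended the call, with adjusted p up to 0.125. At PCB126 0.8 nM it fell by 0.73 ± 0.21 (adjusted p = 0.0483), a call that ended without the pair (-0.48 ± 0.16, adjusted p = 0.0683) and in 6 of 8 omissions.

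Values of hsp70.1 were 2.73, 2.23, 3.59 and 4.56 CPM in control libraries, 3.03, 1.87, 3.68 and 3.24 CPM at Cd 2.4 ug/L, 4.01, 4.61, 4.12 and 5.13 CPM at 12 ug/L and 8.31, 6.07, 7.22 and 4.59 CPM at 24 ug/L. In the PCB126 groups they were 2.16, 2.81, 2.42 and 2.88 CPM at 0.08 nM, 1.88, 2.31, 2.85 and 2.11 CPM at 0.4 nM and 0.625, 1.70, 3.28 and 2.47 CPM at 0.8 nM. No library at Cd 24 ug/L fell below the highest control library, although the lowest was only just above it. The change at Cd 24 ug/L was 1.01 ± 0.30 and did not pass the test (adjusted p = 0.129), whereas it did without the pair (2.3-fold, adjusted p = 0.017).

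The chromosome 8 copy hsp70l, which is used in zebrafish as a heat-inducible promoter, had 5.29, 7.66, 4.25 and 12.0 CPM in control libraries, 8.09, 7.77, 4.91 and 8.21 CPM at Cd 2.4 ug/L, 9.44, 8.21, 5.90 and 10.3 CPM at 12 ug/L and 12.1, 10.3, 8.75 and 12.0 CPM at 24 ug/L. It had 3.31, 4.29, 3.37 and 3.84 CPM at PCB126 0.08 nM, 4.09, 3.21, 3.64 and 6.05 CPM at 0.4 nM and 3.83, 4.77, 7.32 and 4.37 CPM at 0.8 nM. The control libraries spread over nearly the whole range of the other groups. Its changes against control were 0.58 ± 0.27 at Cd 24 ug/L (adjusted p = 0.369) and -0.96 ± 0.28 at PCB126 0.08 nM (adjusted p = 0.186), neither called. Without the pair the value at Cd 24 ug/L was 0.92 ± 0.23 and was called (adjusted p = 0.0173).

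**Figure D1:**
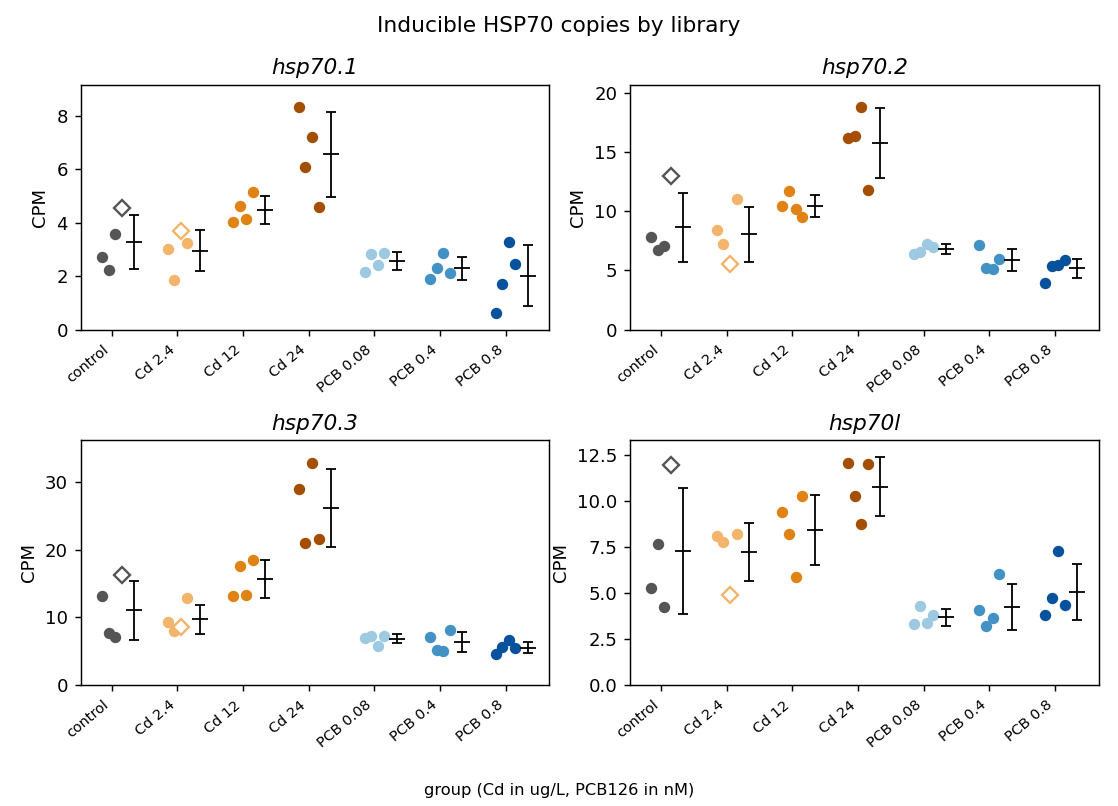
CPM (vertical axis, one panel per copy) of the 4 inducible HSP70 copies in each library of the 7 groups (horizontal axis, Cd in ug/L and PCB126 in nM), with bars for mean ± SD over 4 libraries and open diamonds for control replicate 4 and Cd 2.4 ug/L replicate 3. For hsp70.3 the 4 Cd 24 ug/L libraries sit between 21.0 and 32.8 CPM, above all libraries of the other groups.

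In Cd 24 ug/L against PCB126 0.8 nM, 6 of the 84 genes were called, all higher in Cd 24 ug/L (7.14%, beside 1.74% of all tested genes called in either direction and 0.736% higher), and 4 of the 6 were the inducible HSP70 copies. The log2 fold changes were 2.23 ± 0.24 for hsp70.3 (4.68-fold, adjusted p = 1.27e-06), 1.60 ± 0.21 for hsp70.2 (3.04-fold, adjusted p = 2.17e-05), 1.69 ± 0.31 for hsp70.1 (3.22-fold, adjusted p = 0.00206) and 1.09 ± 0.27 for hsp70l (2.12-fold, adjusted p = 0.0328). For each copy the 4 Cd 24 ug/L libraries all lay above the 4 PCB126 0.8 nM libraries. The call of hsp70l ended in 6 of the 8 single-library omissions, and none of the 8 ended a call of the other 3 copies. This comparison sets a chemical against another at doses that cannot be matched. The groups may also differ in series, which the labels do not state.

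In Cd 24 against 2.4 ug/L, 2 of the 84 genes were called, hsp70.3 and hsp70.2, both higher at 24 ug/L (2.38%, beside 0.520% of all tested genes in either direction and 0.236% higher). The log2 fold changes were 1.42 ± 0.23 for hsp70.3 (adjusted p = 0.00363) and 0.96 ± 0.20 for hsp70.2 (adjusted p = 0.0258), the second of which ended in 5 of 8 omissions. The values for hsp70.1 and hsp70l were 1.15 ± 0.31 (adjusted p = 0.0744) and 0.57 ± 0.27 (adjusted p = 0.297). Without the divergent pair 13 of the 84 genes were called, 12 of them higher (3.79% of all tested genes called).

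Set beside control at the lower doses, 0 of the 4 inducible copies were called by edgeR at Cd 2.4 or 12 ug/L or at PCB126 0.08 or 0.4 nM. Of all tested genes only 0.0394%, 0.173%, 0.386% and 1.00% were called at these doses, so this is not read as particular to the copies. The median of the 4 was -0.12 at Cd 2.4 ug/L, 0.37 at 12 ug/L and 0.94 at 24 ug/L. Over the PCB126 doses it was -0.51 at 0.08 nM, -0.66 at 0.4 nM and -0.71 at 0.8 nM. Without the divergent pair the medians were 0.21, 0.61 and 1.17 over the Cd doses, the first with its sign turned, and -0.29, -0.36 and -0.48 over the PCB126 doses. The test between the highest and lowest Cd doses is given above. In PCB126 0.8 against 0.08 nM none of the 4 copies was called (1.02% of all tested genes were), with log2 fold changes from -0.39 to 0.45. At Cd 2.4 ug/L the values of all 4 copies changed sign under at least 1 alternative.

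Per length, the inducible copies stood below the constitutive hspa8 in every library. Their summed TPM was 28.6, 24.1, 21.4 and 21.7 in control libraries, 26.4, 23.4, 11.1 and 32.3 at Cd 2.4 ug/L, 34.2, 40.6, 33.3 and 40.6 at 12 ug/L and 62.6, 50.2, 64.7 and 46.8 at 24 ug/L. In the PCB126 groups the mean sums were 18.0 ± 1.21 TPM at 0.08 nM, 17.9 ± 3.02 at 0.4 nM and 17.0 ± 3.49 at 0.8 nM (SD, n = 4 each). The sums of all Cd 12 and 24 ug/L libraries lay above those of all control libraries. Some PCB126 sums overlapped control, with 21.40 in 0.4 nM replicate 4 and 21.67 in 0.8 nM replicate 3. The lowest control sum was 21.38. In TPM control replicate 4 was not high, and TPM carries no TMM factor.

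The constitutive cytosolic partner hspa8 (HSC70) had a mean of 160.5, 150.8, 152.2 and 151.4 TPM in control, Cd 2.4, 12 and 24 ug/L, and of 163.2, 152.0 and 159.0 TPM at PCB126 0.08, 0.4 and 0.8 nM. Inducible copies were 25.8% to 29.3% of the summed TPM of these copies and hspa8 in the Cd 24 ug/L libraries, against 11.8% to 14.1% in control libraries. At Cd 12 ug/L the share was 17.3% to 24.9%, and at PCB126 0.8 nM it was 8.49% to 11.5%. The deposited gene length of hspa8 is 6877 bases, against 2297 to 2358 bases for the inducible copies, and its TPM, and so these shares, depend on that length. The test of hspa8 itself gave -0.36 ± 0.24 at Cd 24 ug/L (adjusted p = 0.544) and -0.29 ± 0.24 at PCB126 0.8 nM (adjusted p = 0.56).

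**Figure D2:**
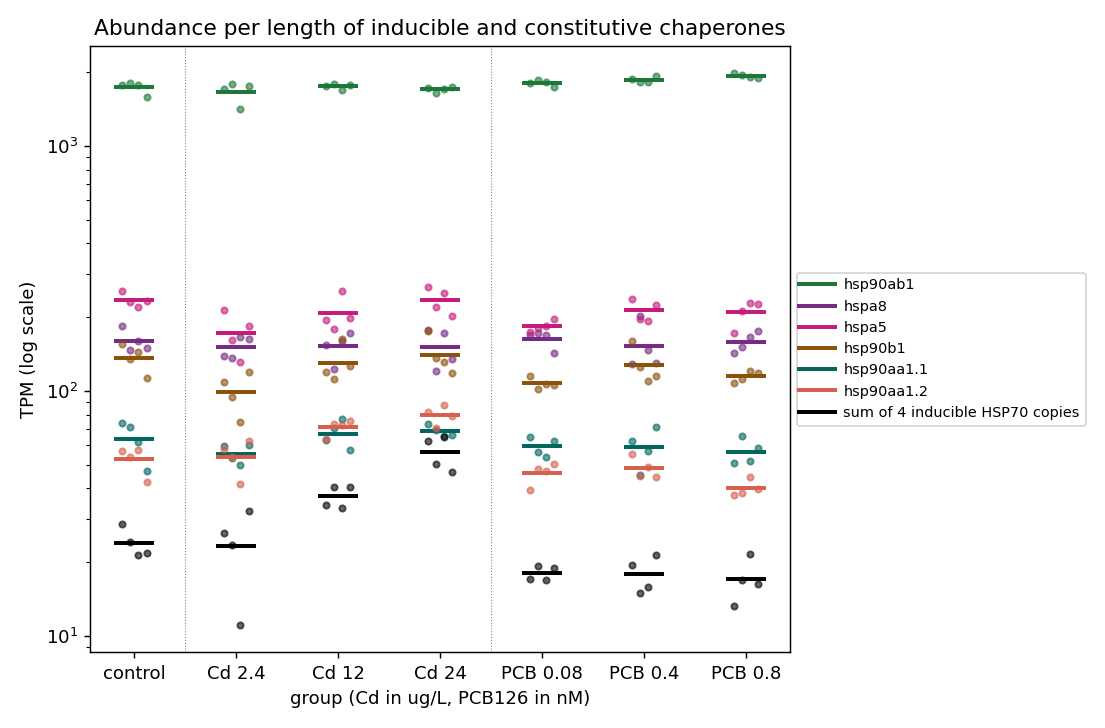
TPM (vertical axis, log scale) of 6 HSP70 and HSP90 genes and of the sum of the 4 inducible HSP70 copies in each of the 7 groups (horizontal axis), with points for libraries and lines for group means. The sum of the inducible copies has a mean of 56.1 TPM at Cd 24 ug/L and 24.0 TPM in control, while hsp90ab1 stays between 1669 and 1929 TPM in group means.

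Among all members the highest level per length was that of hsp90ab1, the constitutive cytosolic HSP90. Averaged over groups, hsp90ab1 stood at 1782 TPM, followed by hspa5 (BiP, the HSP70 of the endoplasmic reticulum) at 207.9, hspa8 at 155.6, dnaja2 (a J-domain partner of HSP70, named after its values were seen) at 127.9, hsp90b1 (the HSP90 of the endoplasmic reticulum) at 122.3 and hspd1 (the mitochondrial chaperonin) at 110.8 TPM. None of hspa8, hspa5, hspa9, hspa4a, hspa4b, hsph1, hsp90ab1, hsp90b1, hspd1 and hspe1 was called in any of the 9 comparisons by edgeR with all libraries. Of all tested genes only 5.05% were called in any of them, so this lack of calls is not read as particular to these chaperones. Without the pair 1 of the 4 HSP110 genes was called higher in Cd 24 against 2.4 ug/L and 1 in Cd 24 ug/L against PCB126 0.8 nM. In that setting 1 of the 4 HSP90 genes was higher at PCB126 0.08 nM, and 1 was lower in Cd 24 ug/L against PCB126 0.8 nM. Over all genes that setting called 3.79% between the Cd doses and 7.83% at PCB126 0.08 nM. In Cd 24 ug/L against PCB126 0.8 nM it called 6.57%. At Cd 24 ug/L hspa5 had -0.29 ± 0.19, hsp90ab1 -0.29 ± 0.16, hspd1 -0.16 ± 0.14 and hspe1 (the co-chaperonin of hspd1) -0.32 ± 0.25. Without the divergent pair these 4 values were 0.05, -0.01, 0.10 and 0.13. At PCB126 0.8 nM hsp90ab1 had -0.13 ± 0.16, and without the pair it was called at 0.15 ± 0.04 (adjusted p = 0.0146). Control replicate 4 carried 7934 CPM of hsp90ab1 and 492 CPM of hspa5, far above the other control libraries (4259 to 4367 and 227.6 to 260.1 CPM). In TPM, which carries no TMM factor, it was not high. It had 1586 TPM of hsp90ab1, beside 1769, 1810 and 1782, and 232 TPM of hspa5, beside 255, 230 and 220.

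The stress-inducible cytosolic HSP90 genes lie side by side on chromosome 20, hsp90aa1.2 (ENSDARG00000024746) at 53967350 to 53981626 and hsp90aa1.1 (ENSDARG00000010478) at 53982317 to 54012043. Of these, hsp90aa1.1 is known in zebrafish for folding myosin in skeletal muscle. In hsp90aa1.2 the libraries held 75.8, 71.6, 77.8 and 118 CPM in control, 83.6, 75.8, 112 and 89.7 CPM at Cd 2.4 ug/L, 90.9, 99.8, 95.9 and 106 CPM at 12 ug/L and 113, 99.6, 120.1 and 111 CPM at 24 ug/L. At PCB126 0.08, 0.4 and 0.8 nM they held 57.4, 68.7, 70.0 and 74.2 CPM, 76.7, 63.7, 67.8 and 61.3 CPM, and 48.8, 52.2, 61.5 and 58.4 CPM. The PCB126 0.8 nM libraries were all below the control libraries and below all Cd libraries.

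At PCB126 0.8 nM hsp90aa1.2 fell by 0.63 ± 0.14 on the log2 scale against control (adjusted p = 0.00642; by 0.44 ± 0.09 without the pair). At Cd 24 ug/L the value was 0.37 ± 0.13 (adjusted p = 0.235), called without the pair at 0.57 ± 0.09 (adjusted p = 0.000303). In Cd 24 ug/L against PCB126 0.8 nM it was 1.01 ± 0.14 (2.01-fold, adjusted p = 4.38e-05), a call that held in all 8 omissions. The neighbour hsp90aa1.1 averaged 87.4 ± 4.69 CPM at Cd 24 ug/L and 71.4 ± 10.1 CPM at PCB126 0.8 nM (SD, n = 4 each), a log2 fold change of 0.29 ± 0.16 that was not called (adjusted p = 0.704). How reads shared by the neighbours were counted is not given in the sources used here.

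The collagen chaperone gene serpinh1b (HSP47, ENSDARG00000019949, chromosome 15, 29382454 to 29388012) fell in 5 of the 6 exposed groups. Its product holds procollagen in the endoplasmic reticulum. Control libraries had 35.3, 37.8, 37.5 and 72.9 CPM, Cd 2.4 ug/L libraries 36.4, 23.7, 42.6 and 20.03, 12 ug/L libraries 24.1, 18.8, 24.4 and 19.2 and 24 ug/L libraries 16.4, 20.1, 20.2 and 11.9 CPM. PCB126 libraries had 18.6, 18.7, 20.2 and 22.1 CPM at 0.08 nM, 23.5, 21.6, 22.5 and 24.3 CPM at 0.4 nM and 16.7, 17.0, 17.1 and 25.7 CPM at 0.8 nM. Every library of those 5 groups lay below the lowest control library, while Cd 2.4 ug/L overlapped control. All these falls refer to the same 4 control libraries, of which replicate 4 was the highest in CPM. In TPM, which carries no TMM factor, the control libraries had 19.2, 20.5, 20.1 and 19.1.

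The fall of serpinh1b was -1.41 ± 0.23 at Cd 24 ug/L (2.67-fold, adjusted p = 0.00139; -1.10 ± 0.17 without the pair) and -1.26 ± 0.23 at PCB126 0.8 nM (2.39-fold, adjusted p = 0.00153; -0.94 ± 0.17 without the pair). Both held in all 8 single-library omissions. The values were -1.08 ± 0.23 at Cd 12 ug/L (adjusted p = 0.0495), -1.20 ± 0.23 at PCB126 0.08 nM (adjusted p = 0.0118) and -0.99 ± 0.23 at 0.4 nM (adjusted p = 0.0272). Of these, 5, 3 and 5 of the 8 omissions ended the call, and without the pair all 3 remained called at -0.77, -0.88 and -0.67. Cd 24 ug/L and PCB126 0.8 nM differed by -0.16 ± 0.23 in this gene (adjusted p = 1.00), which was not called, and without PCB126 0.8 nM replicate 4 the value was 0.01. In whole larvae, fewer cells of a type and less RNA per cell cannot be told apart.

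Collagen genes, whose products are clients of serpinh1b, were read beside it. Of 34 tested fibrillar collagen genes and collagen folding enzymes, 0 were called by edgeR at Cd 24 ug/L against control, with 3 at an unadjusted p below 0.05 and 0 called by DESeq2. Over all genes tested edgeR called 0.922% there, with 12.8% at an unadjusted p below 0.05, and DESeq2 called 2.45%. The median log2 fold change of the 34 was 0.04, beside -0.02 over all genes. At PCB126 0.8 nM 2 of the 34 were called, both lower, col2a1a (-0.58 ± 0.11) and col11a2 (-0.49 ± 0.12), which encode cartilage collagen chains. Of all tested genes 3.49% were called there, 1.47% lower. Summed CPM of the 34 genes was 11532 to 12961 at Cd 24 ug/L, 8323 to 11428 at PCB126 0.8 nM and 10819 to 13348 in control. Of 23 tested cartilage and bone marker genes, 10 were lower and 0 higher at PCB126 0.8 nM, and 1 was lower (spp1) at Cd 24 ug/L. The shares of all tested genes called lower were 1.47% at PCB126 0.8 nM and 0.177% at Cd 24 ug/L. The 27 marker genes in the table summed to 2518 to 3190 CPM at PCB126 0.8 nM, 3490 to 3807 at Cd 24 ug/L and 3487 to 5143 in control, with 1 or 2 of them at 0 in each of these groups. The part of these tissue markers in the fall of serpinh1b was not tested.

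The HSP70 co-chaperone bag3 (ENSDARG00000039486, chromosome 13, 25486608 to 25498661), which releases clients from HSP70 and acts with small heat shock proteins in muscle protein turnover, rose at the highest dose of both chemicals. Control libraries had 14.3, 13.5, 11.7 and 13.5 CPM, Cd 2.4 ug/L libraries 18.3, 15.5, 15.5 and 16.6, 12 ug/L libraries 16.3, 19.0, 16.0 and 17.2 and 24 ug/L libraries 20.7, 22.6, 22.2 and 20.6 CPM. PCB126 libraries had 17.7, 14.8, 18.1 and 16.8 CPM at 0.08 nM, 19.0, 17.5, 16.3 and 16.9 CPM at 0.4 nM and 15.5, 19.7, 19.0 and 20.8 CPM at 0.8 nM. In CPM all 24 exposed libraries lay above the highest control library, and here control replicate 4 was in the middle of its group. In TPM control replicate 4 was the lowest control library, at 6.66, and exposed libraries overlapped control. Cd 2.4 ug/L replicate 3 had 7.88 TPM and PCB126 0.08 nM replicate 2 had 14.1 TPM, below control replicate 1 at 14.6 TPM. The log2 fold changes were 0.70 ± 0.10 at Cd 24 ug/L (1.62-fold, adjusted p = 0.000251) and 0.50 ± 0.10 at PCB126 0.8 nM (1.41-fold, adjusted p = 0.00389), and both held in all 8 omissions and without the pair. Cd 24 ug/L against PCB126 0.8 nM gave 0.20 ± 0.10 (adjusted p = 0.62).

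Small heat shock proteins gave calls in hspb6 and hspb2, both of which encode proteins found in muscle. In hspb6 the libraries held 18.5, 17.1, 18.1 and 27.6 CPM in control, 25.7, 25.1, 28.9 and 35.3 CPM at PCB126 0.08 nM, 34.1, 37.4, 35.8 and 35.4 CPM at 0.4 nM and 37.3, 38.6, 40.5 and 45.5 CPM at 0.8 nM. The Cd groups averaged 25.2 ± 8.51, 24.9 ± 0.930 and 33.8 ± 7.89 CPM at 2.4, 12 and 24 ug/L (SD, n = 4 each). All libraries at PCB126 0.4 and 0.8 nM lay above all control libraries. The rise was 0.82 ± 0.18 at 0.4 nM (adjusted p = 0.0222, ended by 7 of 8 omissions) and 1.00 ± 0.18 at 0.8 nM (2.00-fold, adjusted p = 0.00155, ended by none), while Cd 24 ug/L gave 0.74 ± 0.18 (adjusted p = 0.051). Without the pair it was called at Cd 24 ug/L at 0.92 ± 0.14 and at all 3 PCB126 doses.

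In hspb2 the difference lay between the highest doses, with 2.91, 4.03, 2.81 and 3.62 CPM at Cd 24 ug/L and 1.87, 1.16, 1.78 and 1.55 CPM at PCB126 0.8 nM. These groups did not overlap (1.07 ± 0.27, adjusted p = 0.0366), although 7 of 8 omissions ended the call. Of 32 tested skeletal muscle genes, 1 (acta1b) was called in that comparison, higher in Cd 24 ug/L, and 11 of 33 were without the divergent pair. Over all tested genes the shares called there were 1.74% with all libraries and 6.57% without the pair. With all libraries acta1b was also the 1 call of the list at PCB126 0.8 nM against control, lower (-0.63 ± 0.15, adjusted p = 0.0171). Of all tested genes 1.47% were called lower at that dose. The 35 muscle genes in the table summed to 91269 to 99946 CPM at Cd 24 ug/L and 75855 to 89476 CPM at PCB126 0.8 nM, with 0 of them at 0 in either group. Their part in the hspb2 and hspb6 differences was not tested. A further 3 small heat shock genes were not called at Cd 24 ug/L against control with all libraries, hspb1 (0.27 ± 0.21), hspb7 (0.85 ± 0.25) and hspb11 (0.40 ± 0.26). Without the pair all 3 were called, at 0.61, 0.62 and 0.83.

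J-domain genes were the largest class, and 4 of the 48 tested were called, each in a comparison with a PCB126 group. Of all tested genes 5.05% were called in any of the 9 comparisons. More of all genes were called at PCB126 0.8 nM (3.49%) than at Cd 24 ug/L (0.922%), so the J-domain count is not read as particular to the class. The cytosolic HSP40 genes dnajb1a and dnajb1b, whose products hand unfolded clients to HSP70, were lower at PCB126 0.8 nM. For dnajb1a the values were 6.17, 8.24, 7.52 and 6.77 CPM at PCB126 0.8 nM and 10.8, 9.47, 10.7 and 10.3 CPM in control. For dnajb1b they were 5.47, 7.22, 4.92 and 5.01 CPM at PCB126 0.8 nM and 8.80, 8.39, 7.60 and 11.7 CPM in control. Neither gene's groups overlapped, and the log2 fold changes were -0.52 ± 0.12 for dnajb1a (adjusted p = 0.0114) and -0.68 ± 0.16 for dnajb1b (adjusted p = 0.0132). Leaving out PCB126 0.8 nM replicate 1 ended the first call (adjusted p = 0.0552), as did library totals alone, and leaving out control replicate 4 or PCB126 0.8 nM replicate 3 or 4 ended the second. At 0.4 nM dnajb1a was also called (-0.49 ± 0.12, adjusted p = 0.0404), and 7 of 8 omissions ended that call.

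At Cd 24 ug/L, where hsp70.2 and hsp70.3 rose, these HSP40 genes were not called. There, dnajb1a had 8.51, 8.76, 8.37 and 8.69 CPM (-0.26 ± 0.12, adjusted p = 0.358) and dnajb1b had 8.72, 7.63, 7.34 and 7.23 CPM (-0.23 ± 0.16, adjusted p = 0.548). All dnajb1a values at Cd 24 ug/L were below all control values, and those of dnajb1b overlapped control.

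A different dose pattern appeared in dnajc16, a J-domain gene of the endoplasmic reticulum membrane. It had 7.91, 9.41, 9.39 and 7.30 CPM in control, 5.25, 4.57, 4.77 and 4.32 CPM at PCB126 0.08 nM, 6.64, 6.20, 6.02 and 7.36 CPM at 0.4 nM and 7.26, 8.99, 7.32 and 7.75 CPM at 0.8 nM. The lowest PCB126 dose was the one furthest from control, and its libraries lay below all libraries of every other group. The fall at 0.08 nM was -0.85 ± 0.15 (adjusted p = 0.00672), and it held in all 8 omissions and ended with library totals alone. PCB126 0.8 against 0.08 nM gave 0.73 ± 0.16 (adjusted p = 0.0145), the single call among the 84 genes there (1.19%, beside 1.02% of all tested genes in either direction and 0.666% higher), and 4 of 8 omissions ended it.

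The fourth J-domain call was dnajc9, a histone-binding co-chaperone in human cells, with 7.26, 7.56, 9.23 and 8.46 CPM at PCB126 0.8 nM and 12.5, 11.9, 10.7 and 21.9 CPM in control. It fell by 0.80 ± 0.20 (adjusted p = 0.0215), and by 0.52 ± 0.16 without the pair. Leaving out control replicate 4 or PCB126 0.8 nM replicate 1 or 2 ended the call. Named after its values were seen, dnaja1, a J-domain partner of HSP70, had 8.58, 8.26, 8.30 and 8.28 CPM at Cd 24 ug/L and 13.6, 13.2, 14.3 and 5.29 CPM in control. Only control replicate 4 and Cd 2.4 ug/L replicate 3 (2.56 CPM) were below 6 CPM, and dnaja1 was not called with all libraries but was called lower in all 6 exposed groups without the pair (-0.52 to -0.71).

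The transcription factor genes were not called with all libraries, beside 5.05% of all tested genes called in any of the 9 comparisons. The gene of heat shock factor 1, hsf1, had 17.0, 16.7, 18.3 and 16.6 CPM at Cd 24 ug/L and 16.2, 18.2, 15.8 and 3.19 CPM in control, and 1.64 CPM in Cd 2.4 ug/L replicate 3. Outside those divergent libraries it stayed between 13.4 and 18.3 CPM in all groups. Its log2 fold change at Cd 24 ug/L was 0.35 ± 0.38 (adjusted p = 0.736), and 0.04 ± 0.09 without the pair. For hsf2, whose product pairs with that of hsf1, the value was 0.17 ± 0.10 (adjusted p = 0.453), and 0.29 ± 0.07 without the pair (adjusted p = 0.00879). Without the pair hsf2 was also called higher at PCB126 0.08, 0.4 and 0.8 nM, at 0.35, 0.25 and 0.35. The lens factor gene hsf4 had 0.42 ± 0.32 at Cd 24 ug/L.

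**Figure D3:**
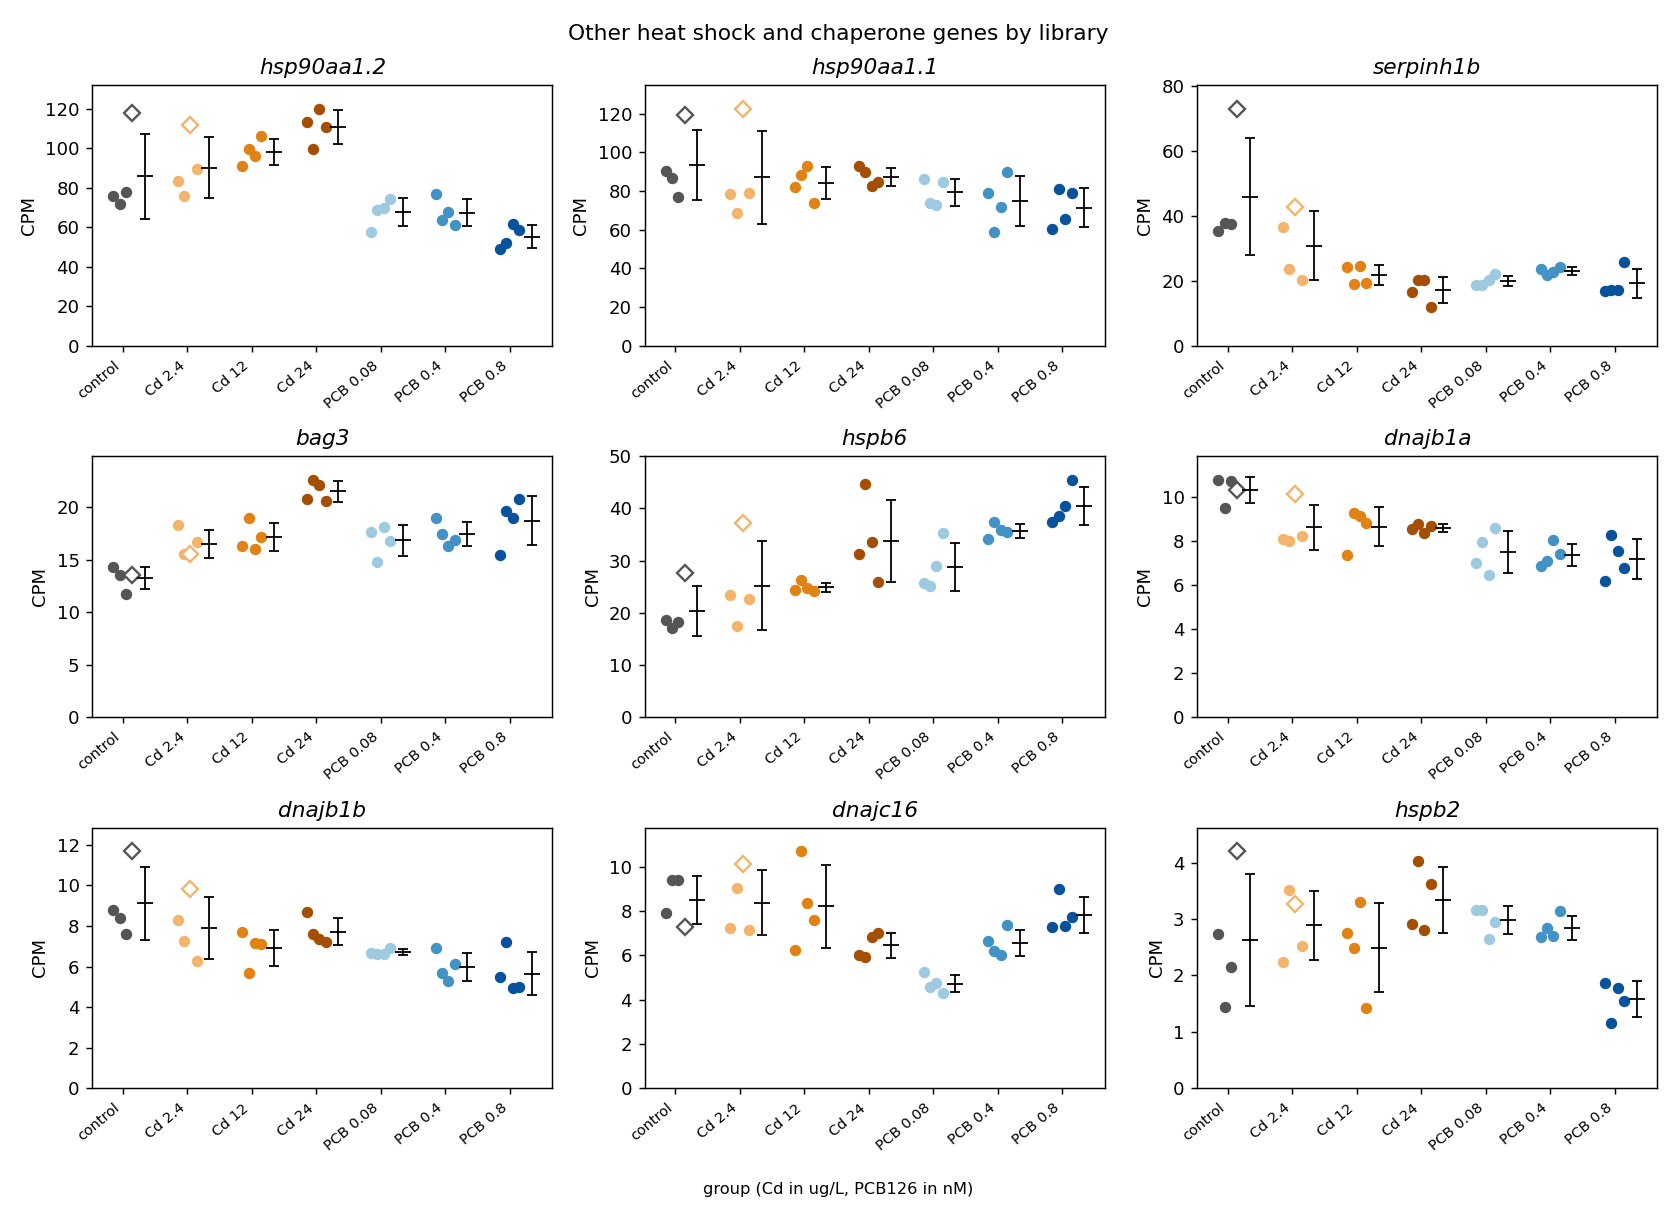
CPM (vertical axis, one panel per gene) of 9 other heat shock and chaperone genes in each library of the 7 groups (horizontal axis, Cd in ug/L and PCB126 in nM), with bars for mean ± SD over 4 libraries and open diamonds for control replicate 4 and Cd 2.4 ug/L replicate 3. The panels show serpinh1b between 11.9 and 20.2 CPM at Cd 24 ug/L and between 35.3 and 72.9 CPM in control, and bag3 in every exposed library above the 14.3 CPM of the highest control library.

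Over the whole set the calls were few and uneven in direction. The shares below include bag3 and serpinh1b, added by name with earlier results known, so they are description and no test of an excess. At Cd 24 ug/L 4 of 84 genes were called (4.76%, beside 0.922% of all tested genes, 0.744% higher and 0.177% lower), 3 higher (hsp70.3, hsp70.2 and bag3) and 1 lower (serpinh1b). At Cd 12 ug/L 1 was called, serpinh1b (1.19%, beside 0.173% of all tested genes in either direction and 0.0118% lower). At Cd 2.4 ug/L 0 were called by edgeR and 0 by DESeq2, beside 0.0394% and 0.124% of all genes they tested. By edgeR 13 were at an unadjusted p below 0.05, as were 5.43% of all tested genes. At PCB126 0.08 nM 2 were called, both lower, serpinh1b and dnajc16 (2.38%, beside 0.386% of all tested genes in either direction and 0.0866% lower). At 0.4 nM hspb6 was called higher and serpinh1b and dnajb1a lower (3.57%, beside 1.00% in either direction, 0.638% higher and 0.366% lower). At PCB126 0.8 nM 9 were called (10.7%, beside 3.49% of all tested genes, 2.02% higher and 1.47% lower), with bag3 and hspb6 higher and hsp70.2, hsp70.3, hsp90aa1.2, serpinh1b, dnajb1a, dnajb1b and dnajc9 lower.

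The median log2 fold change of the 84 genes was -0.03 at Cd 24 ug/L, beside -0.02 over all genes, and -0.11 at PCB126 0.8 nM, beside -0.01. Without the divergent pair it was 0.041 at Cd 24 ug/L, and -0.025 at PCB126 0.8 nM, beside -0.0054 over all genes. With library totals alone it was 0.082 and 0.055, beside 0.081 and 0.105. Scaling by library totals alone, which moved the median of all genes to 0.11 at Cd 12 ug/L and 0.105 at PCB126 0.8 nM, changed the split of calls. With it, 6 were higher and 1 lower at Cd 24 ug/L (1.15% of all tested genes called). At PCB126 0.08, 0.4 and 0.8 nM, 1, 1 and 3 were higher and 2, 1 and 4 lower (0.311%, 1.02% and 3.37%). Without the divergent pair 12 were higher and 2 lower at Cd 24 ug/L (5.08% of all tested genes called), and 5 higher and 7 lower at PCB126 0.8 nM (8.73%). In the same setting 1 was called at Cd 2.4 ug/L (0.133%), 3 at 12 ug/L (0.797%), 13 at PCB126 0.08 nM (7.83%), 6 at 0.4 nM (3.57%), 10 in PCB126 0.8 against 0.08 nM (11.0%) and 14 in Cd 24 ug/L against PCB126 0.8 nM (6.57%). The 13 at PCB126 0.08 nM and the 10 between PCB126 doses are read against those larger shares of all genes. DESeq2 called more of them at several doses, 7 at Cd 24 ug/L (2.45% of all genes it tested), 2 at 12 ug/L (0.507%), and 4, 6 and 12 at PCB126 0.08, 0.4 and 0.8 nM (0.809%, 1.79% and 5.94%). It called 7 in Cd 24 against 2.4 ug/L (2.62%), 1 in PCB126 0.8 against 0.08 nM (2.06%) and 6 in Cd 24 ug/L against PCB126 0.8 nM (2.47%).

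**Figure D4:**
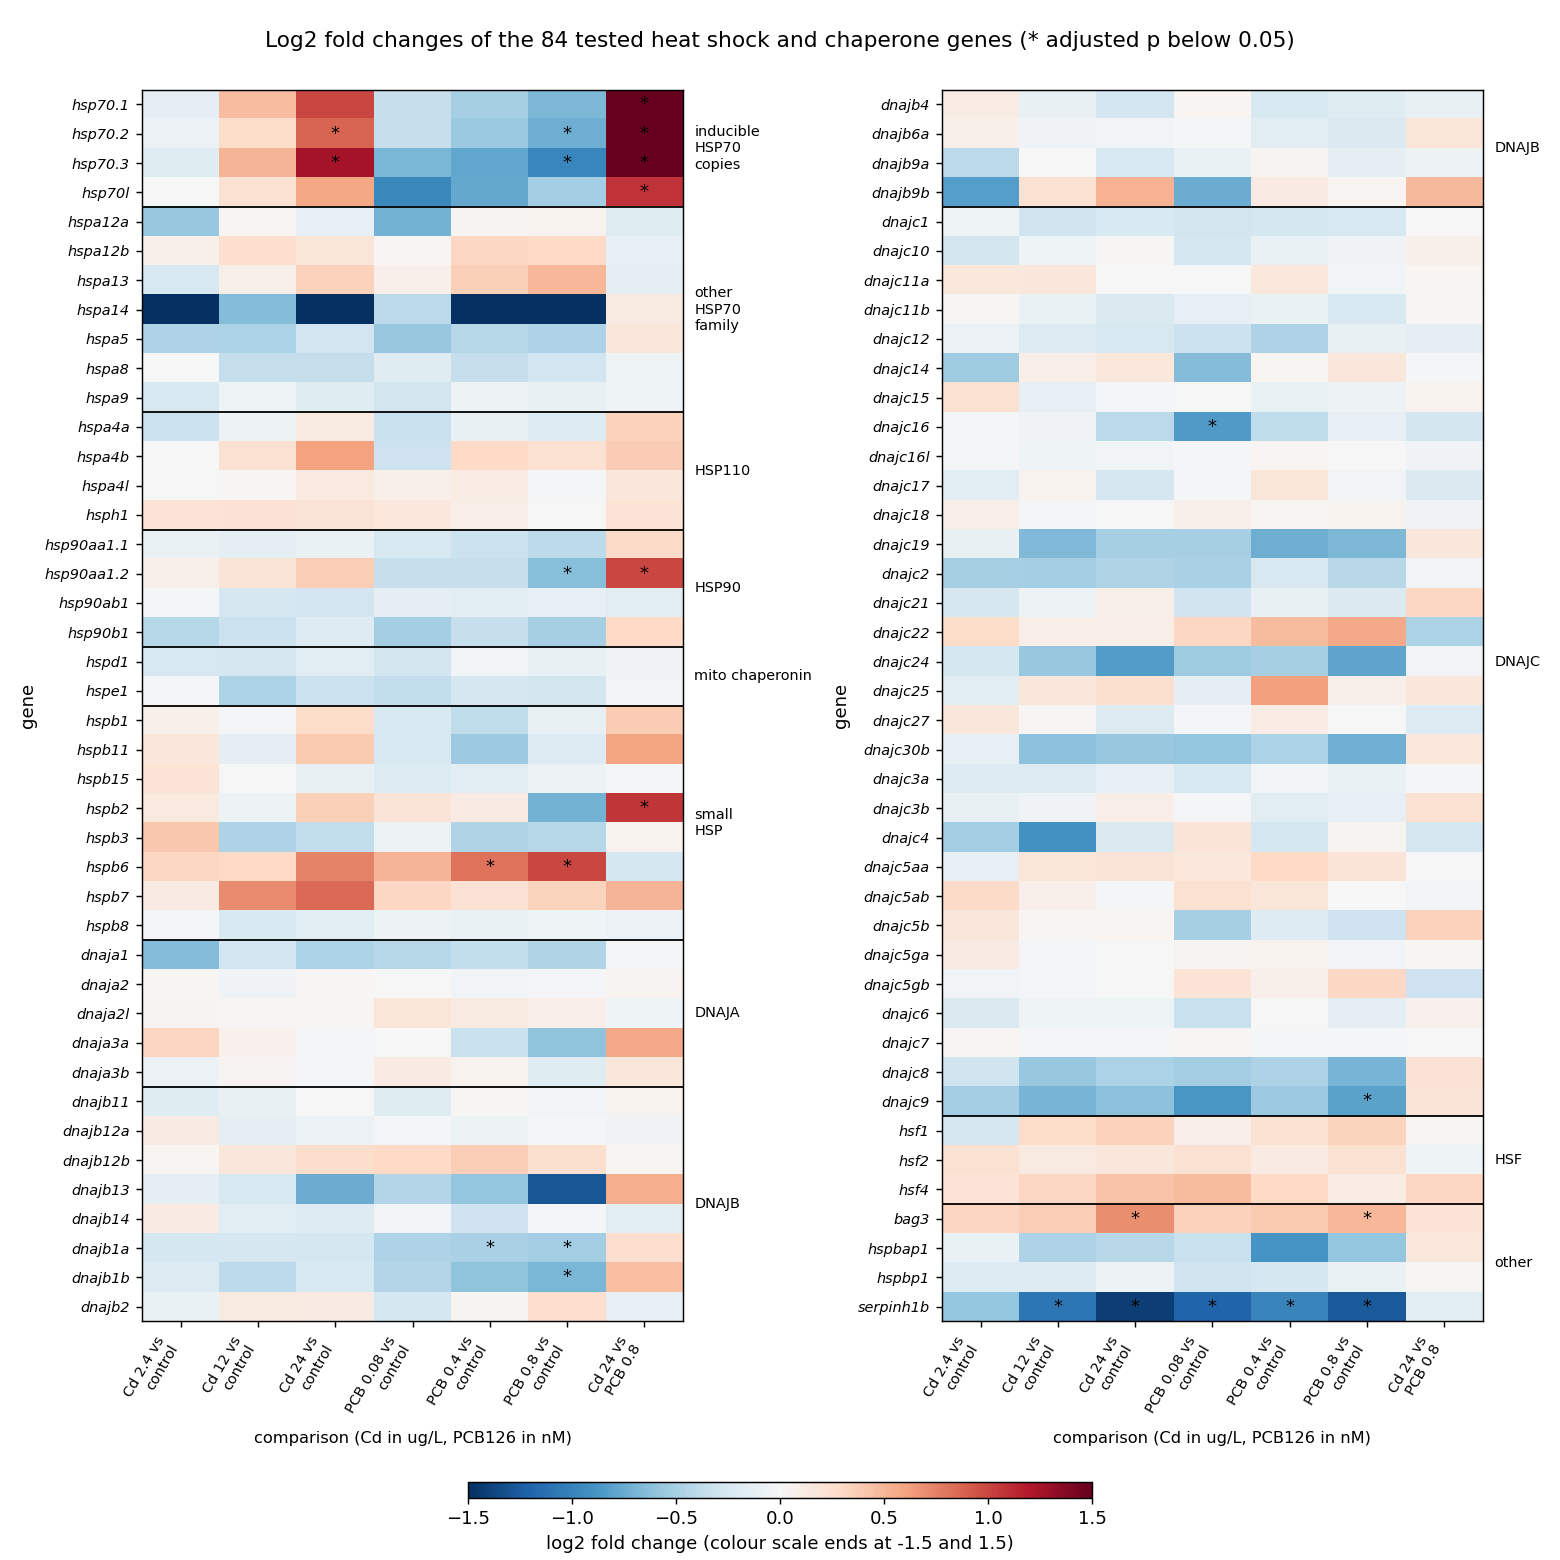
Log2 fold changes (colour, scale ending at -1.5 and 1.5) of the 84 tested genes (rows, grouped by class) in the 6 comparisons with control and in Cd 24 ug/L against PCB126 0.8 nM (columns). Asterisks mark an adjusted p below 0.05. The rows of the inducible HSP70 copies are red at Cd 24 ug/L and blue in the PCB126 columns, and the row of serpinh1b is blue in all 6 comparisons with control.

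Other folding genes outside the symbol rule showed few edgeR calls with all libraries. Over the 9 comparisons edgeR called 0.0394% to 3.49% of all genes with all libraries, and DESeq2 0.124% to 5.94%. Without the pair edgeR called 0.133% to 11.0% of all genes. That included 5.08% at Cd 24 ug/L, 8.73% at PCB126 0.8 nM and 11.0% in PCB126 0.8 against 0.08 nM. The counts below are read beside these shares and are no test of an excess. Of 30 tested co-chaperones of HSP70 and HSP90, fkbp5 was the single edgeR call in the 9 comparisons, higher in Cd 24 ug/L than in PCB126 0.8 nM (0.80 ± 0.16, adjusted p = 0.00463). Its product is an HSP90 co-chaperone that responds to glucocorticoids. DESeq2 also called 1 of the list there and 0 elsewhere. Without the pair 3 were higher in that comparison, 2 higher at Cd 24 ug/L, 2 lower at PCB126 0.08 nM and 1 lower at 0.8 nM against control. Of 37 tested genes of endoplasmic reticulum folding and stress, edem1 (degradation of misfolded glycoproteins) was the single edgeR call, higher at Cd 24 ug/L than in control (0.32 ± 0.07, adjusted p = 0.0185). DESeq2 called 1 higher there, 1 higher and 1 lower at PCB126 0.8 nM and 3 higher in Cd 24 against 2.4 ug/L. Without the pair there were calls in 7 of the 9 comparisons, from 1 to 3 genes in each. Of 14 tested mitochondrial protease and folding genes, clpxa was the single edgeR call, higher at Cd 24 ug/L than in control (0.28 ± 0.06, adjusted p = 0.0174). DESeq2 called 2 higher there, 2 higher and 1 lower at PCB126 0.8 nM and 3 higher in Cd 24 against 2.4 ug/L. Without the pair there were calls in 5 of the 9 comparisons, all higher, with 2 at Cd 24 ug/L and 3 at PCB126 0.8 nM. None of 18 tested genes of the cytosolic chaperonin and prefoldin and none of 39 proteasome and ubiquitin genes was called by edgeR or DESeq2 in any of the 9 comparisons. The counts at an unadjusted p below 0.05 ranged from 0 to 5 in the first list and from 0 to 8 in the second. Of all tested genes 5.43% to 17.5% were at that level by edgeR. Without the pair, 2 proteasome and ubiquitin genes were higher at Cd 24 ug/L and 1 in each of 4 other comparisons, and 4 chaperonin and prefoldin genes were lower in PCB126 0.8 against 0.08 nM.

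**Figure D5:**
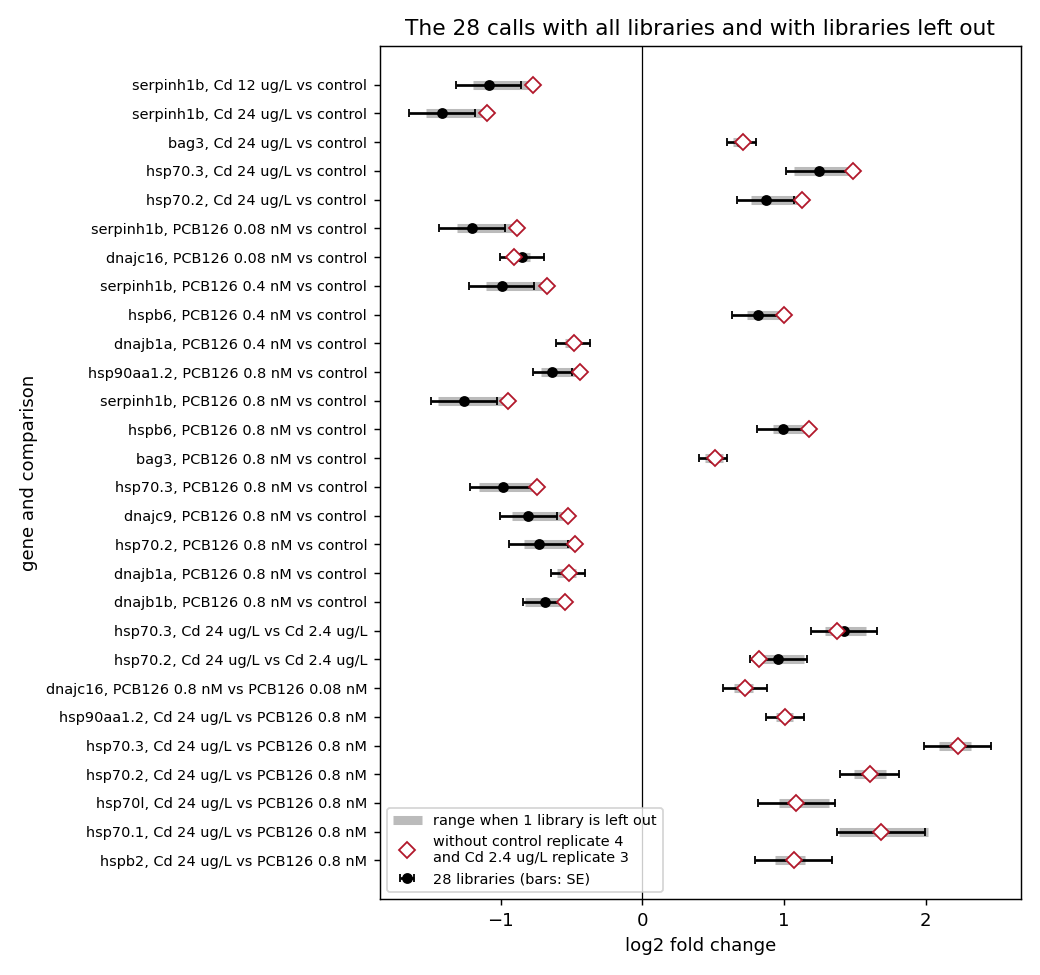
Log2 fold changes (horizontal axis) of the 28 calls (vertical axis), with points and SE bars for all 28 libraries, grey bands for the range when 1 library of the groups compared is left out, and red diamonds for the values without control replicate 4 and Cd 2.4 ug/L replicate 3. All 28 keep their sign in every setting drawn, and the serpinh1b values lie nearer to 0 without the pair.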

How the data were processed

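RNA was taken from whole larvae and poly-A selected, per the labels' protocols. HISAT2 2.0.5, featureCounts 1.5.0-p3 and the GRCz11 build are named in the submitters' processing notes. The authors deposited raw counts per gene, TPM per gene and, in the same table, the gene lengths in bases, another deposited unit that was used only to describe TPM. Strand setting, annotation release and treatment of reads with several matches are not given in the sources used here. Samples were grouped by the labels, and 0 columns were left unused.

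Counts were filtered by group with filterByExpr, scaled by TMM and fitted with edgeR 4.0.16 (R 4.3.3, limma 3.58.1) in 1 quasi-likelihood model of 28 libraries and 7 group means. 9 comparisons were tested, each with Benjamini-Hochberg adjustment over 25393 genes and a call at an adjusted p below 0.05. The scripts were tested on simulated data. Alternatives were DESeq2 1.42.0, its size factors, library totals alone, no filter, a mean of at least 10 counts, a replicate block, a model of the 2 groups compared, and leaving out each library. Leaving out control replicate 4 and Cd 2.4 ug/L replicate 3 was added after seeing the data. Library totals of 11893345 to 20770004 limit the low genes, since a copy at 8 counts carries a large counting error.

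The members and gene lists were chosen with earlier results of these data known. Genes named were the HSP70 copies, heat shock factors, a set of constitutive or organelle chaperones, the J-domain and small heat shock genes dnajb1a, dnajb1b, hspb1, hspb7 and hspb11, serpinh1b, bag3, every member called in any comparison, and the called genes of each outside list, at most 4 per comparison. Genes named beyond this are marked as chosen after their values were seen. The lists for hepatocyte and lens markers were also read.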

Additional observations from a re-analysis of the deposited data

Results flagged for a closer look

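Of 210 groups of 4 libraries checked (30 genes in 7 groups each), 22 held a library whose gap to the nearest other library passed Dixon's 95% critical value, and chance flags about 1 group in 20. Control replicate 4 accounted for 11 of them. In CPM it was high for serpinh1b (72.9), hspa5 (492), hsp90ab1 (7934), hsp90aa1.2 (118), hspd1 (251), hspe1 (111), hspb1 (42.1), hspb11 (31.6), dnajc9 (21.9) and hspb6 (27.6), and low for hsf1 (3.19). In TPM it was instead the lowest control library for serpinh1b (19.1), hsp90ab1 (1586), hsp90aa1.2 (42.6), hspd1 (96.4) and hspb6 (14.8). It was still the highest for hspe1 (67.4) and hspb11 (33.5), and lay between the others for hspa5, hspb1 and dnajc9. Cd 2.4 ug/L replicate 3 accounted for 6, high for hspa8 (1001), hsp90ab1 (6911), dnajb1a (10.1) and hspb11 (33.0) and low for hsf1 (1.64) and hsp70l (4.91). The others were serpinh1b (25.7) and hspd1 (187) in PCB126 0.8 nM replicate 4, hspa8 (472) in PCB126 0.08 nM replicate 4, and hspb7 in PCB126 0.4 nM replicate 1 (5.84) and PCB126 0.8 nM replicate 3 (6.56).

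The effect of Cd 24 ug/L differed from that of PCB126 0.8 nM in 6 genes (edgeR, adjusted p below 0.05), beside 1.74% of all tested genes. With 1 control group for both chemicals, this is the direct comparison of the 2 groups given above and no further test. The groups may also differ in series, which the labels do not state. On the log2 scale the differences, Cd minus PCB126, were 2.23 for hsp70.3, 1.69 for hsp70.1, 1.60 for hsp70.2, 1.09 for hsp70l, 1.07 for hspb2 and 1.01 for hsp90aa1.2.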

How the results depend on the processing

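Counts of called members below run over the comparisons with control of Cd 2.4, 12 and 24 ug/L and PCB126 0.08, 0.4 and 0.8 nM, then Cd 24 against 2.4 ug/L, PCB126 0.8 against 0.08 nM, and Cd 24 ug/L against PCB126 0.8 nM. With all libraries they were 0, 1, 4, 2, 3, 9, 2, 1 and 6. Without the divergent pair they were 1, 3, 14, 13, 6, 12, 13, 10 and 14, and 27 of the 28 calls remained. DESeq2 gave 0, 2, 7, 4, 6, 12, 7, 1 and 6. Library totals alone gave 0, 1, 7, 3, 2, 7, 7, 2 and 6, beside 10, 59, 292, 79, 259, 856, 158, 292 and 491 calls over all 25393 genes. With no filter the counts were 0, 0, 3, 2, 2, 8, 2, 1 and 5 of 89 members. Over all 34143 genes of that setting the calls were 10, 37, 141, 74, 217, 701, 70, 219 and 391. A model of only the 2 groups compared gave 0 in the first 7, then 5 (6.02%, beside 7.12% of all genes) and 7 (8.43%, beside 4.45%). Leaving out 1 library gave 0 to 0, 0 to 1, 3 to 6, 1 to 3, 0 to 4, 5 to 10, 1 to 3, 0 to 1 and 4 to 6. Calls over all genes are not given for these omissions, so the ranges are not read as particular to the members. Deviations of same-numbered libraries from their group means had correlations of -0.709 to 0.660 over 36 pairs, and 0 of 9 comparisons had every pair over 0.1. The means of control and Cd 2.4 ug/L include the divergent pair, which bears on every correlation with those groups. Without those groups, correlations were -0.042 to 0.141 in PCB126 0.8 against 0.08 nM. They were -0.056 to -0.010 in Cd 24 ug/L against PCB126 0.8 nM. Whether same-numbered libraries share a clutch or dish was not tested. A replicate block gave 0, 0, 4, 2, 3, 8, 2, 1 and 5, beside 10, 40, 187, 82, 233, 800, 82, 239 and 408 calls over all 25393 genes. The cause of these changes was not tested.

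Reversals of sign were all in values that were not called. At Cd 2.4 ug/L against control, single-library omissions gave -0.29 to 0.048 for hsp70.1, -0.29 to 0.17 for hsp70.2, -0.35 to 0.063 for hsp70.3, -0.19 to 0.35 for hsp70l and -0.045 to 0.27 for hsp90aa1.2. Signs other than with all libraries came without control replicate 4 for hsp70.1, hsp70.2 and hsp70.3, among others. Without the pair hsp70.2 was 0.30 and hsp70.3 0.11. For hsp70l, near 0 with all libraries, the value was -0.0079 with no filter, -0.0055 with a mean of at least 10 counts and -0.0077 with only the 2 groups. For serpinh1b in Cd 24 ug/L against PCB126 0.8 nM omissions gave -0.25 to 0.012.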

Other observations

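Marker lists of other tissues were read beside the chaperones. Of 30 tested hepatocyte genes, 7 were higher and 0 lower at PCB126 0.8 nM against control, 1 was higher and 1 lower at Cd 24 ug/L against control, and 0 were higher and 7 lower in Cd 24 ug/L against PCB126 0.8 nM. None of 29 tested lens genes was called by edgeR in any of the 9 comparisons, with 0 to 22 at an unadjusted p below 0.05. Of all tested genes 5.43% to 17.5% were at that level. DESeq2 called 1 of 35, lower, in each of Cd 24 ug/L and PCB126 0.8 nM against control and PCB126 0.8 against 0.08 nM, and 0 in the other comparisons. Of 23 tested cartilage and bone genes, 10 were higher and 1 lower in Cd 24 ug/L against PCB126 0.8 nM (0.736% and 1.01% of all tested genes).

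Named after its values were seen, hspa14, an HSP70 family gene whose product works at the ribosome in human cells, varied widely within groups. It had 0.703, 1.43, 1.09 and 0.423 CPM at PCB126 0.8 nM and 7.43, 4.40, 0.778 and 4.38 CPM in control, and its log2 fold change there was -2.20 ± 0.69 (edgeR, adjusted p = 0.0787). Control replicate 3 lay within the range of the PCB126 0.8 nM libraries.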
